A study of Rattus norvegicus with 4 samples.

Results

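Fibroblast progenitors of fat were examined in the perivascular adipose tissue of the thoracic aorta (taPVAT) and in subscapular brown adipose tissue (BAT) of the rat. They are called progenitor-like nuclei here, and 854 nuclei met the definition among 4762 fibroblast nuclei and 116661 nuclei in all. A nucleus entered with at least 500 detected genes. It then needed at least 3 unique molecular identifiers (UMIs, each a counted RNA molecule) from at least 2 of the fibroblast genes Pdgfra, Dcn, Col1a1, Col1a2, Col3a1 and Lama2, and at most 1 UMI over 9 genes of endothelial, immune, smooth muscle, mesothelial and Schwann cells (Cyyr1, Ptprb, Flt1, Ptprc, Mrc1, Myh11, Msln, Upk3b and Cdh19). Nuclei that passed are the gated fibroblasts, in which Col1a2 could not count because its symbol had no match among the gene names. Members were chosen by measured RNA: they had at least 2 UMIs over Pi16, Dpp4, Sema3c and Cd55, and the 3908 gated fibroblasts with 0 or 1 such UMI are called the other fibroblasts.

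Nuclei came from snap-frozen tissue of untreated male Dahl SS rats (SS/HsdMcwiCrl) aged 16 weeks, an inbred strain that becomes hypertensive on a high-salt diet. There were 2 libraries from taPVAT and 2 from BAT, with 2 rats per tissue, and the labels do not say whether the same rats gave both tissues. All 4 libraries share the strain, sex, age, feed and nuclei kit. The taPVAT libraries gave 462 (replicate 1) and 197 members (replicate 2), the BAT libraries 117 and 78. Replicates are therefore few, and the nuclei of a library are not replicates. Every test below compares libraries, by UMIs summed per library or, for the share of members, by 1 percentage per library.

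In adipose tissue, fibroblasts that carry Pi16 and Dpp4 lie in the connective tissue around lobules and in the outer coat of vessels. They are known as multipotent progenitors, upstream of preadipocytes that carry Icam1, Pparg and basement membrane genes. Pi16 encodes a secreted peptidase inhibitor, Dpp4 a cell-surface dipeptidase (CD26), Sema3c a secreted semaphorin and Cd55 a shield against complement.

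Library depth ranged from 63654436 to 158140959 UMIs over 14765 to 44637 barcodes. Members and other fibroblasts had close depths: the median member held between 2269 and 2532 UMIs and the median other fibroblast between 2161 and 2561. Median mitochondrial shares were 10.6% to 15.6% in members and 9.81% to 14.9% in the other fibroblasts. Adipocyte RNA was present in both: the summed level of 12 adipocyte genes was 4240 to 8990 CPM (UMIs per 1e6 UMIs of the summed nuclei) in members, 4907 to 9354 CPM in the other fibroblasts and 7664 to 13226 CPM in adipocyte nuclei. Barcodes of 17 members also occurred in another library, and no barcode was a member in more than 1 library.

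Progenitor-like nuclei made up a larger share of the gated fibroblasts in taPVAT than in BAT. The share was 27.5% (462 of 1680; Wilson 95% interval 25.4% to 29.7%) and 27.2% (197 of 725; 24.1% to 30.5%) in the taPVAT libraries. It was 7.96% (117 of 1470; 6.68% to 9.45%) and 8.79% (78 of 887; 7.1% to 10.8%) in the BAT libraries. Both taPVAT libraries lay above both BAT libraries, with a mean of 27.3% ± 0.232 (SD, n = 2) against 8.38% ± 0.590 (SD, n = 2), a difference of 19.0 percentage points. An exact two-sided permutation test gave p = 0.333, the smallest that 2 against 2 libraries allow. Of all kept nuclei, members were 1.07% and 1.6% in taPVAT and 0.339% and 0.291% in BAT.

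**Figure D1:**
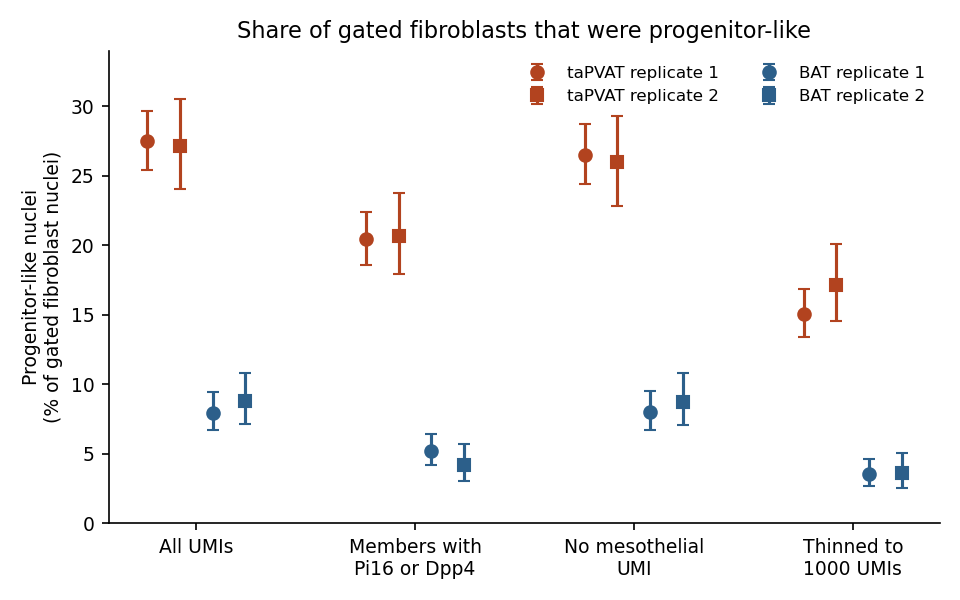
Share of gated fibroblast nuclei that were progenitor-like (y axis, percent) in each library, with Wilson 95% intervals, for 4 ways of counting (x axis). The taPVAT libraries lie above the BAT libraries in each, at 27.5% and 27.2% against 7.96% and 8.79% with all UMIs.

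Depth and the detection of the 4 genes in adipocyte nuclei were measured beside this share. With every nucleus thinned to 1000 UMIs, which left out 63 and 7 gated nuclei of taPVAT and 30 and 22 of BAT as too shallow, the share was 15.03% and 17.1% in taPVAT and 3.54% and 3.58% in BAT, a difference of 12.5 points. Adipocyte nuclei, at median depths of 2940 to 4986 UMIs, reached 2 UMIs over the 4 genes in 1.17% and 1.55% of nuclei in taPVAT. In BAT they did so in 0.438% and 0.680%. Whether the UMIs of the 4 genes there came from adipocytes or from other cells was not tested. Thinned, those shares were 0.125% and 0.225%, and 0.0250% and 0.0750%. The difference between tissues also stood when members needed Pi16 or Dpp4 itself, with 20.4% and 20.7% in taPVAT and 5.17% and 4.17% in BAT. The intervals cover counting error only.

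Most members were recognised by Pi16 and Sema3c. Pi16 was detected in 68.6% and 72.6% of taPVAT members and in 61.5% and 41.0% of BAT members, and Sema3c in 79.9% and 85.3%, and 84.6% and 78.2%. Dpp4 was found in 10.3% to 18.3% of members over the 4 libraries and Cd55 in 16.7% to 35.9%. These values follow from the definition. Of 854 members, 313 (36.7%) held UMIs of 1 of the 4 genes, 369 (43.2%) of 2, 145 (17.0%) of 3 and 27 (3.16%) of all 4. Sema3c stood alone in 207 members, Pi16 in 98, Cd55 in 8 and Dpp4 in 0.

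The 4 genes went together when each was tested with a definition that left it out. Gated fibroblasts with at least 2 UMIs over the remaining 3 genes were compared with all others, in sums per library, with edgeR's quasi-likelihood test and adjustment over all genes. Pi16 was at 430.0 and 828 CPM in taPVAT and 327 and 82.8 CPM in BAT, against 116 and 116 CPM and 22.7 and 17.4 CPM in the rest (log2 fold change 2.63 ± 0.22, adjusted p = 7.0e-07). For Dpp4 the log2 fold change was 4.37 ± 0.40 (adjusted p = 5.7e-07), for Sema3c 3.07 ± 0.20 (adjusted p = 1.3e-14) and for Cd55 3.76 ± 0.24 (adjusted p = 3.3e-08). Each gene was higher in 4 of 4 libraries. For Dpp4 in BAT replicate 2 this rests on 4 UMIs (11.3 CPM) against 7 UMIs in the rest (2.73 CPM). These fits were not run without nuclei marked by a mesothelial UMI (defined below). In nuclei thinned to 1000 UMIs, Sema3c was detected in 42.4% and 53.4% of Pi16-positive fibroblasts of taPVAT and in 41.0% and 35.7% of those of BAT. In Pi16-negative fibroblasts it was detected in 13.8% and 12.3%, and in 4.50% and 5.62%. Dpp4, thinned likewise, was found in 6.12% and 9.48% of Pi16-positive fibroblasts of taPVAT, against 1.38% and 0.831% of Pi16-negative ones. In BAT replicate 1 it was found in 9.84% against 0.290%. BAT replicate 2 did not show this, with Dpp4 in 0 of 28 Pi16-positive and 3 of 837 Pi16-negative nuclei.

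Genes known from fat progenitors but not used in the definition were higher in members, which fits the label. Of 28 such genes, 27 symbols were in the files and 25 had enough counts to be tested against the other fibroblasts in edgeR with the library as a term. Of these, 24 were called (adjusted p under 0.05) as higher, 0 as lower, and Tppp3 was not called (log2 fold change 0.87 ± 0.34, adjusted p = 0.18). Over all 10372 genes tested outside the definition, 7.08% were called, 4.87% higher and 2.21% lower. The median log2 fold change was 2.35 over the list and -0.0011 over all genes. Without nuclei marked by a mesothelial UMI (defined below), 23 of the 25 were called higher and 0 lower, against 4.72% and 2.25% of all genes. With Pi16 or Dpp4 required as well, 22 were called higher and 0 lower, against 4.89% and 2.98%. Leaving out 1 library at a time gave 22 to 24 higher and 0 lower. The list was drawn up with earlier results of these libraries known and is no independent evidence of its direction. Of the 2 untested members, Cd248 had 0 UMIs in all gated fibroblasts and Uchl1 had 2.

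Matrix and surface genes of the progenitor state were among them. Fbn1, which encodes the microfibril protein fibrillin-1, was at 1893, 3873, 1884 and 1384 CPM in the members against 501, 600.5, 334 and 348 CPM in the other fibroblasts, in the order taPVAT replicates 1 and 2, BAT replicates 1 and 2 (log2 fold change 2.25 ± 0.13, adjusted p = 1.5e-09). Mfap5, another microfibril component, was at 193, 339.7, 241 and 169 CPM in the members against 42.4, 60.3, 24.1 and 43.1 CPM in the other fibroblasts (log2 fold change 2.47 ± 0.17, adjusted p = 1.3e-08). For both genes the lowest member library lay above the highest library of other fibroblasts. Cd34, a surface glycoprotein of progenitors, was at 66.9, 98.5, 74.6 and 30.5 CPM in the members against 19.5, 14.8, 7.27 and 5.48 CPM in the other fibroblasts (log2 fold change 2.44 ± 0.23, adjusted p = 1.0e-06). Scara5, a ferritin receptor, had a log2 fold change of 1.47 ± 0.17 (adjusted p = 7.4e-06) and the adhesion receptor gene Adgrd1 one of 2.42 ± 0.16 (adjusted p = 1.1e-08).

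The list also holds secreted signals. Bmp7, a bone morphogenetic protein, was at 12.3, 27.9, 28.5 and 22.1 CPM in the members against 0.241, 0, 0 and 1.17 CPM in the other fibroblasts (log2 fold change 5.92 ± 0.62, adjusted p = 2.8e-06). Wnt2, a Wnt ligand, was at 4.91, 6.56, 13.2 and 22.1 CPM in the members against 0, 0, 0.373 and 0.783 CPM in the other fibroblasts (log2 fold change 5.07 ± 0.69, adjusted p = 5.6e-05). No library of members overlapped the other fibroblasts for either gene, though both were low. Il33, an alarmin cytokine, and Igfbp6, a binding protein of insulin-like growth factors, had log2 fold changes of 2.57 ± 0.25 and 2.53 ± 0.27. BAT replicate 2 had the lowest Il33 level of the members, 11.1 CPM, which lay below the 12.0 CPM of the other fibroblasts in taPVAT replicate 1.

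Regulators and enzymes differed in how far they were higher. The transcription factor gene Creb5 was at 418, 903, 465 and 512 CPM in the members against 63.3, 55.6, 29.1 and 79.1 CPM in the other fibroblasts (log2 fold change 3.30 ± 0.19, adjusted p = 2.4e-09), with wide separation. Efhd1, a calcium-binding protein of mitochondria, and the annexin gene Anxa3 had log2 fold changes of 3.66 ± 0.24 and 3.64 ± 0.34. At the low end stood Ugdh, which makes a precursor of hyaluronan (0.83), Heg1 (0.84) and the sphingomyelinase gene Smpd3 (0.89). Smpd3 varied more between libraries than between subsets, at 645, 2481, 355 and 1190.4 CPM in the members against 236, 1973, 139 and 775 CPM in the other fibroblasts, and was higher in members within each library.

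**Figure D2:**
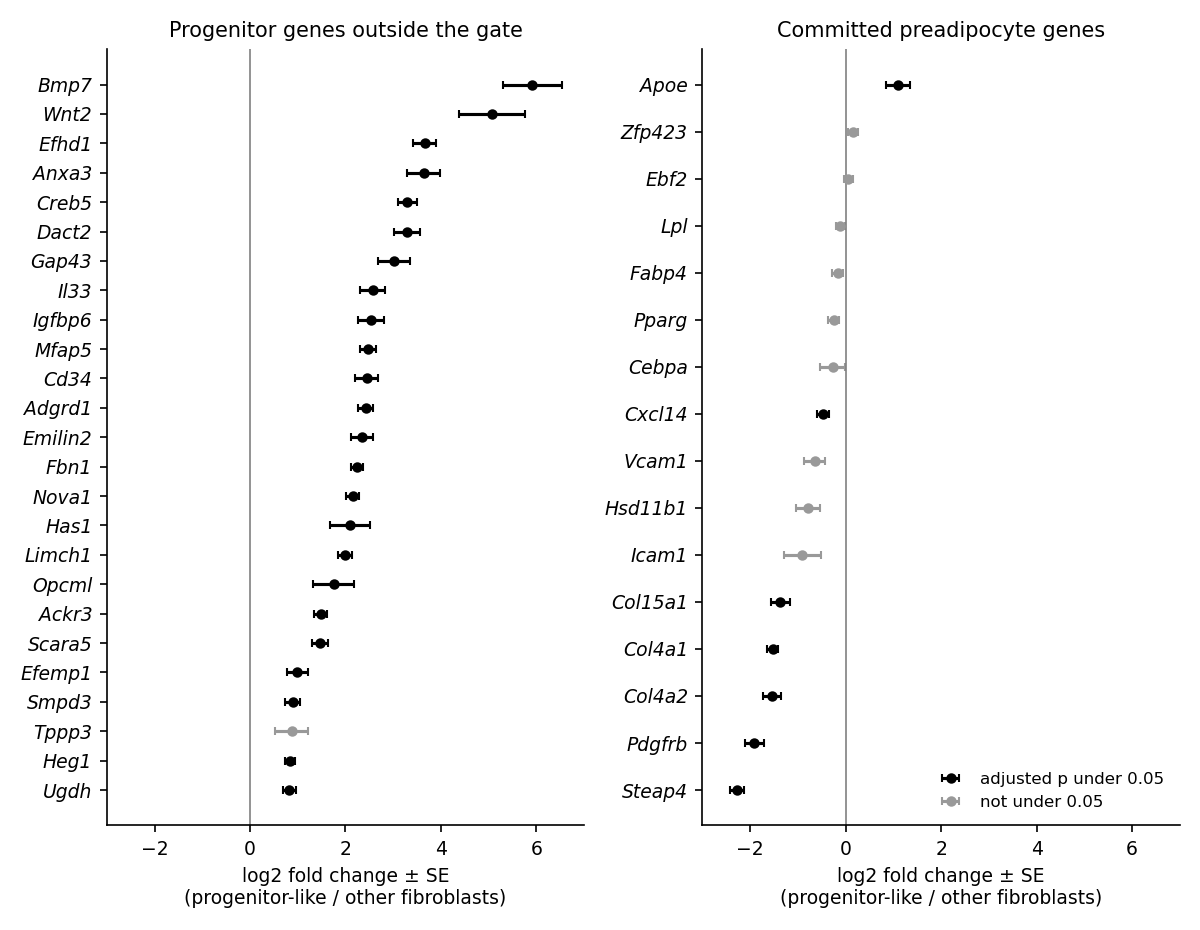
Log2 fold change ± SE (x axis) of each tested progenitor gene outside the definition (left, 25 genes) and each tested committed preadipocyte gene (right, 16 genes), members over other fibroblasts. Black points had an adjusted p under 0.05, and progenitor genes range from 0.83 to 5.92.

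In each library, the summed other progenitor genes were higher at 3 or more UMIs over the 4 defining genes than at 0. A clear rise was not seen at every step. Just outside the threshold, at 1 UMI, were 240 and 77 nuclei in taPVAT and 96 and 96 in BAT, and just inside, at 2 UMIs, were 111 and 49, and 31 and 32. The summed level of the progenitor list was 2540 and 2847 CPM in taPVAT and 1832 and 4016 CPM in BAT at 1 UMI. It was 3032 and 7756 CPM, and 3360.1 and 5600.4 CPM, at 2 UMIs. At 3 or more it reached 6173 and 12721 CPM, and 6957 and 5617 CPM. With 0 UMIs the levels were 1327 and 3697 CPM, and 1119 and 1877 CPM, so that taPVAT replicate 2 was higher at 0 than at 1. In that library Fbn1 went from 580.3 to 693 CPM and Mfap5 from 51.8 to 99.0 CPM between 0 and 1 UMI, against the direction of the sum. The sum gives most weight to abundant genes, among them Smpd3, which varied more between libraries than between subsets. These values describe the threshold and were not tested.

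**Figure D3:**
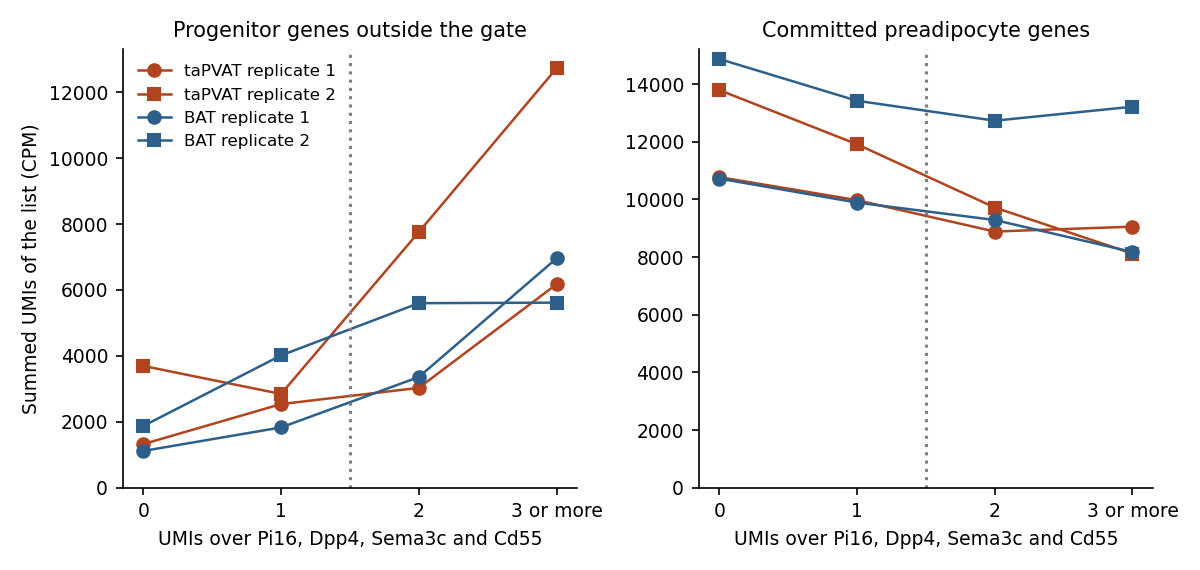
Summed level in CPM (y axis) of the progenitor genes outside the definition (left) and of the committed preadipocyte genes (right) in gated fibroblasts with 0, 1, 2 or at least 3 UMIs over Pi16, Dpp4, Sema3c and Cd55 (x axis), 1 line per library. The dotted line marks the threshold for members, and progenitor levels reach 5617 to 12721 CPM on the far right.

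Members without Pi16 and Dpp4 were less marked. In members with a UMI of either gene (606 of 854), the progenitor list summed to 5896 and 12859 CPM in taPVAT and 7666 and 8954 CPM in BAT. In the remaining members, recognised by Sema3c or Cd55, it summed to 3814 and 8169 CPM, and 3382 and 3891 CPM. Marked by a mesothelial UMI (defined below), taPVAT members held 3397 and 3556 CPM. Each of these sums lay above that of the other fibroblasts of its own library, at 1563 and 3545 CPM, and 1176 and 2192 CPM. In taPVAT replicate 2, however, the 14 marked members, at 3556 CPM, hardly differed from the other fibroblasts at 3545 CPM. No test was made among these kinds of member.

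Part of the genes of committed preadipocytes were lower in members. Of 16 tested, 6 were called lower in members, 1 higher (Apoe, 1.10, not called without taPVAT replicate 2 or BAT replicate 1) and 9 were not called, with a median log2 fold change of -0.56. Over all genes tested outside the definition, 4.87% were called higher and 2.21% lower. The counts of this list and of those that follow are to be read beside these shares. Lower were the surface genes Steap4 (-2.27), a metalloreductase, and Pdgfrb (-1.91), a receptor of platelet-derived growth factor, with the basement membrane collagens Col4a1 (-1.53), Col4a2 (-1.54) and Col15a1 (-1.37), and Cxcl14 (-0.47). The call of Cxcl14 was made under 9 of 19 alternatives only. Steap4 was at 20.9, 55.8, 24.1 and 33.2 CPM in the members against 90.3, 259, 116 and 197 CPM in the other fibroblasts (adjusted p = 9.8e-09), with no overlap between subsets. Of 6 tested genes of mural cells of vessels, 2 were also called lower in members and 0 higher, with a median of -0.61. The part of mural nuclei in the levels of the lower genes was not tested. Adipogenic genes that adipocytes also express were not called: Pparg, the master regulator of adipogenesis, had a log2 fold change of -0.25 ± 0.12 (adjusted p = 0.31), Lpl -0.11 ± 0.10 and Fabp4 -0.17 ± 0.11. For these 3 genes the adipocyte RNA described above was present in both subsets, and its part in their levels was not tested. Dlk1 had 0 UMIs in members and 5 in the other fibroblasts.

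Genes named for cells that restrain adipogenesis went both ways. Of 5 tested, Gdf10 (log2 fold change 1.39 ± 0.35, adjusted p = 0.018) and the tissue factor gene F3 (log2 fold change 0.48 ± 0.13, adjusted p = 0.023) were called higher, and Fmo2 (log2 fold change -0.84 ± 0.15, adjusted p = 0.0012) lower. Calls were unstable: 1 gene was called higher with taPVAT replicate 1, taPVAT replicate 2 or BAT replicate 1 left out, and 0 lower without taPVAT replicate 1. Gdf10 was called under 11 of 18 alternatives and F3 under 11 of 19.

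Matrix genes went both ways: of 36 tested, 18 were called higher in members and 7 lower, with a median of 0.52. Fn1, fibronectin, was at 203, 494, 285 and 235 CPM in the members against 31.3, 26.0, 21.4 and 47.8 CPM in the other fibroblasts (log2 fold change 3.18 ± 0.21, adjusted p = 1.3e-08). Also higher were the proteoglycan versican (Vcan, 2.52), the hyaluronan synthases Has2 (2.71) and Has1 (2.09), the fibulins Fbln2 (2.34), Fbln1 (1.66) and Fbln5 (1.25), Col14a1 (2.47) and the crosslinking enzymes Lox (1.89) and Loxl1 (1.86). Lower were Col4a1, at 452, 1116, 555 and 1326 CPM in the members against 1103, 3889, 1955 and 2893 CPM in the other fibroblasts (log2 fold change -1.53 ± 0.12, adjusted p = 1.1e-07), with Col4a2, Col15a1, Col5a3 (-1.48), Col6a1 (-1.07), Col6a2 (-1.12) and Fbn2 (-2.24), whereas Col4a5 was higher (0.59), a call made under 4 of 19 alternatives only. Elastin (Eln, 1.5) was higher over all libraries but not in each: BAT replicate 2 held 36.0 CPM in members and 48.2 CPM in the other fibroblasts.

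Signalling genes followed no single direction. In the Wnt pathway, which restrains adipogenesis in its canonical branch, 6 of 22 tested genes were called higher and 1 lower. Beside Wnt2 these were the secreted frizzled-related proteins Sfrp4 (2.54), Sfrp2 (1.97) and Sfrp1 (1.79), which bind Wnt ligands, the amplifier Rspo1 (2.15) and the receptor Ror2 (0.81), while Tcf7l1 was lower (-0.54). Without taPVAT replicate 1, 3 Wnt genes were called higher. Of 25 genes of the TGF-beta and BMP pathways, Bmp7, Bmp6 (2.41), Bmp4 (1.66), Fstl1 (1.77) and Ltbp1 (1.14) were called higher and Tgfb2 (-1.06), Acvr2a (-0.57) and the BMP-binding protein gene Bmper (-1.48) lower. Rspo1, Bmp4 and Sfrp2 were not higher in every library: in BAT, Rspo1 had 0 CPM and Bmp4 0 CPM in the members of 1 library each, and Sfrp2 was at 2.19 CPM in members and 2.61 CPM in the other fibroblasts of replicate 1. Medians were 0.56 for the Wnt list and 0.14 for the TGF-beta and BMP list.

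Growth factor genes also went both ways: 8 of 23 tested were called higher and 4 lower. Fgf18 (1.64), Fgf2 (1.40), Pdgfc (1.07) and Fgf7 (0.63) were among the higher, and Pdgfrb, Vegfc (-1.08), Fgf10 (-1.07) and Angpt1 (-0.57) were the lower. Only 3 were called higher without taPVAT replicate 1, 2 without taPVAT replicate 2 and 5 with 1 BAT library left out, whichever it was. Among genes of axon and vessel guidance, 9 of 24 were called higher and 2 lower, or 1 lower with either taPVAT library left out. Netrin-1 (Ntn1) was at 162, 176, 121 and 66.4 CPM in the members against 59.0, 44.3, 23.1 and 21.9 CPM in the other fibroblasts (log2 fold change 1.80 ± 0.16, adjusted p = 3.0e-07), and Sema3d (3.32), Sema3e (2.56), Sema6a (2.46) and Ntn4 (1.71) were also higher. The receptor gene Robo1 was lower (-1.61) and its ligand Slit2 higher (0.81).

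Complement, chemokine and cytokine genes went both ways. Of 16 tested, 6 were called higher and 5 lower, with a median of 0.40. Higher were, among others, the complement proteases C1r (1.21) and C1s (1.13), C7 (0.60) and the Cxcl12 scavenger receptor Ackr3 (1.48). The 5 lower genes were Ccl2 (-2.58), Ccl11 (-2.09), Cxcl1 (-1.62), Cxcl14 and the interleukin-1 receptor Il1r1 (-1.28). Of this list, 3 were called lower with taPVAT replicate 1, taPVAT replicate 2 or BAT replicate 2 left out, and 4 without BAT replicate 1. Il1r1 was at 81.6, 77.1, 65.8 and 69.2 CPM in the members against 177, 218, 139 and 186 CPM in the other fibroblasts (log2 fold change -1.28 ± 0.13, adjusted p = 1.6e-06), with no overlap. Of 28 positional transcription factors, 5 were called higher (Gata4, Prrx2, Osr1, Meis1 and Foxp2) and Eya2 (-0.74) lower, and 0 of 5 Hox genes tested were called. Leaving out a library changed the number higher to 3 (taPVAT replicate 1), 2 (taPVAT replicate 2), 4 (BAT replicate 1) or 7 (BAT replicate 2). Without BAT replicate 1, 2 were called lower. Over all genes, 4.87% were called higher and 2.21% lower, beside which the 1 lower gene and the absence of Hox calls are not read as results.

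Genes outside these lists showed some of the largest differences. Tnfrsf11b, which encodes the decoy receptor osteoprotegerin, was at 120.3, 279, 74.6 and 119 CPM in the members against 5.78, 6.50, 0.373 and 2.74 CPM in the other fibroblasts (log2 fold change 5.20 ± 0.26, adjusted p = 4.3e-10). Adamts16, a secreted metalloprotease, was at 129, 159, 72.4 and 60.9 CPM in the members against 3.85, 0, 0.560 and 1.96 CPM in the other fibroblasts (log2 fold change 5.76 ± 0.32, adjusted p = 1.5e-09). No library of members overlapped the other fibroblasts for either. Hs3st5, a heparan sulfate sulfotransferase (5.84), Lurap1l (5.17), Ptgs1, cyclooxygenase 1 (4.31), Abca4 (4.01), Ildr2 (3.91), the adenylyl cyclase Adcy2 (3.56), the procollagen processing enhancer PCOLCE2 (3.44) and Adgrg2 (3.41) followed among the 15 largest log2 fold changes of called genes with a mean of at least 20 CPM in the higher subset and one sign in all 4 libraries.

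Tek, the angiopoietin receptor known from endothelium, was at 75.5, 75.5, 147 and 38.8 CPM in the members against 10.1, 5.91, 5.60 and 7.83 CPM in the other fibroblasts (log2 fold change 3.47 ± 0.28, adjusted p = 1.1e-07). It was the only gene called among 5 endothelial genes tested, whose median log2 fold change was 0.07. The summed endothelial list was 83.1 to 179.8 CPM in members and 36.2 to 83.6 CPM in the other fibroblasts. These sums include Tek itself, at 38.8 to 147 CPM in members and 5.60 to 10.1 CPM in the other fibroblasts. Of the myeloid, lymphocyte and adipocyte lists, 0 of 4, 0 of 0 and 0 of 11 tested genes were called. Over all genes tested 7.08% were called, a share at which lists this short can hold no call. In the adipocyte list all 11 log2 fold changes lay between -0.21 (Ppara) and -0.03 (Adipoq). Notch3 (-2.61) and Cspg4 (-0.95) of the mural list (2 of 6) and Scn7a (-1.98) and Cadm2 (-1.83) of the Schwann list (2 of 5) were lower in members. Diaph3 of the proliferation list (1 of 2 tested) was higher (2.21), as was Wt1, the 1 tested gene of the mesothelial list (1.48). Wt1 had 0.88 without nuclei carrying a mesothelial UMI, and 0.43 (adjusted p = 0.43) with Pi16 or Dpp4 required as well. The summed lists lay at 130.1 to 311 CPM (mural), 433 to 617 CPM (Schwann), 50.9 to 94.3 CPM (myeloid), 8.21 to 13.2 CPM (lymphocyte) and 14.7 to 31.2 CPM (proliferation) in members. In the other fibroblasts they lay at 208 to 404 CPM, 471 to 681 CPM, 36.4 to 88.6 CPM, 4.73 to 12.1 CPM and 5.91 to 13.7 CPM. Their part in the differences was not tested.

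Among called genes with a mean of at least 20 CPM in the higher subset and one sign in all 4 libraries, those lowest in members were Sphkap (-4.13), the adhesion gene Chl1 (-3.08), Hmgcll1 (-2.89), the heparan sulfate enzyme Hs6st2 (-2.85), Notch3, Grik2 (-2.45), Bmp5 (-2.45), Syndig1 (-2.43), Septin4 (-2.42) and Gpm6b (-2.37). Igfbp3, a binding protein of insulin-like growth factors, was at 19.6, 55.8, 54.8 and 30.5 CPM in the members against 78.5, 207, 276 and 175 CPM in the other fibroblasts (log2 fold change -2.16 ± 0.14, adjusted p = 1.3e-08). Its relative Igfbp6 went the other way. The feedback inhibitor Spry1 (-2.27) and Col6a5 (-2.10) were also lower.

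In all, 734 genes outside the definition were called between members and other fibroblasts, 505 higher and 229 lower in members, and 1562 had an unadjusted p under 0.05. Without taPVAT replicate 1, which holds 462 of the members, 484 were called. With the other fibroblasts matched to members on total UMIs, 573 were called, 514 of them among the 734.

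Between the tissues, few genes were called in members, which does not show that few differed. Of 6886 genes tested outside the definition, 21 (0.305%) were called higher in taPVAT members and 2 (0.0290%) higher in BAT members, 0.334% together, and 312 had an unadjusted p under 0.05. None of 21 tested progenitor genes outside the definition was called (adjusted p from edgeR), their median log2 difference being 0.35 against -0.03 over all genes. The committed list (0 of 13), the TGF-beta and BMP list (0 of 20) and the growth factor list (0 of 20) also held no call, with medians of -0.13, 0.15 and -0.22. Calls in some other lists numbered 2 of 31 for matrix (Col8a1 and Plod2), 1 of 13 for Wnt (Dkk2), 2 of 20 for guidance (Plxna4 and Sema5a), 1 of 15 for positional factors (Tbx15) and 1 of 1 for mesothelium (Wt1). None of 11 adipocyte genes was called, with a median of -0.51. The call count rests on the libraries: without BAT replicate 2, which leaves 1 BAT library assumed to vary like the others, 0 genes were called with 287 at an unadjusted p below the same threshold. Leaving out BAT replicate 1 gave 10 calls, and leaving out taPVAT gave 79 (replicate 1) or 60 (replicate 2). DESeq2 called 43 genes, 22 of them among the 23.

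The 2 genes higher in BAT were Tbx15, a T-box transcription factor gene of mesenchyme and brown fat, and Spock3, a matrix proteoglycan gene. Tbx15 was at 12.3 and 9.85 CPM in taPVAT and 171 and 161 CPM in BAT (log2 fold change -3.86 ± 0.38, adjusted p = 0.0094, edgeR). Both taPVAT libraries lay below both BAT libraries. The other fibroblasts held 22.2 and 34.9 CPM in taPVAT and 182 and 142 CPM in BAT (log2 fold change -2.53 ± 0.34, adjusted p = 0.30). Spock3 had 1 UMI in taPVAT members and 27 in BAT members, a ratio of 74.0 times (95% counting interval 12.2 to 3028).

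Genes higher in taPVAT members included matrix, adhesion and signalling genes. Col8a1, a short-chain collagen of vessel walls, was at 160.2 and 208 CPM in taPVAT and 2.19 and 5.54 CPM in BAT, 47.2 times (95% counting interval 16.0 to 229.9) the pooled BAT level from 388 and 3 UMIs. Plod2, a lysyl hydroxylase of collagen, was at 134 and 199 CPM in taPVAT and 8.77 and 0 CPM in BAT (log2 fold change 5.04 ± 0.67, adjusted p = 0.017). Piezo2, a mechanically gated ion channel, was at 65.1 and 90.3 CPM in taPVAT and 4.39 and 0 CPM in BAT, 29.4 times (95% counting interval 8.0 to 245) the BAT level from 161 and 2 UMIs. These 3 were listed because an earlier analysis of the fibroblasts of these libraries had called them, so their direction is no independent support. In the other fibroblasts they lay at 89.3 and 42.6 CPM against 5.97 and 5.87 CPM (Col8a1), 81.2 and 79.2 CPM against 5.78 and 2.74 CPM (Plod2), and 28.9 and 28.4 CPM against 0.187 and 0 CPM (Piezo2). Levels in taPVAT members were uneven between nuclei. In replicate 1, the 24 of 462 members with most UMIs of a gene held 73.2% of those of Col8a1 and 81.1% of Piezo2. For Plod2 they held 35.2%, and for the fibroblast gene Dcn 24.1%. In replicate 2, the top 10 of 197 members held 70.9%, 74.5%, 34.7% and 36.9%, in the same order.

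Dkk2, a secreted Wnt modulator, was at 169 and 210.1 CPM in taPVAT and 17.5 and 8.31 CPM in BAT (log2 fold change 3.8 ± 0.45, adjusted p = 0.012), and the scaffold gene Dlg2 at 201 and 213 CPM in taPVAT and 32.9 and 8.31 CPM in BAT (log2 fold change 3.26 ± 0.50, adjusted p = 0.039). Wt1, a transcription factor of mesothelium and of fat around the viscera, was at 112 and 215 CPM in taPVAT and 0 and 0 CPM in BAT, at least 38.1-fold higher against a limit of 3 UMIs over the BAT members. Neither BAT library held a Wt1 UMI in members. In the other fibroblasts the fitted log2 fold change of Wt1 between tissues was 8.45, not called, against 9.93 in members. A test of whether this tissue difference differs between the subsets gave no call (3.47). Ppp2r2b, a phosphatase subunit, was at 112 and 96.8 CPM in taPVAT and 6.58 and 8.31 CPM in BAT (log2 fold change 3.79 ± 0.47, adjusted p = 0.014), and the ion channel gene Trpm3 at 86.6 and 190.4 CPM in taPVAT and 11 and 13.8 CPM in BAT (log2 fold change 3.43 ± 0.55, adjusted p = 0.045). Dlg2, Cdh11 (3.40), Gpc3 (2.84) and Me3 (2.59) were called but fall outside the rule for named genes, and were chosen after their values were seen.

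Mesothelial markers moved with part of this list. Nuclei with UMIs of at least 2 of 9 mesothelial genes (Msln, Upk3b, Krt19, Muc16, Bnc1, Upk1b, Krt8, Krt18 and Lrrn4) were taken as mesothelial. They also needed at most 1 UMI over the excluded genes other than Msln and Upk3b. The last 7 genes form a list of 8 with Wt1, of which 7 symbols were in the files, so not all 9 could count. Mesothelial nuclei numbered 78 and 34 in taPVAT and 0 and 1 in BAT. They carried Sema3c at 1218 and 2579 CPM, one of the 4 defining genes, with Dpp4 at 166 and 386 CPM (in 37.2% and 47.1% of these nuclei, above the members' 57.7 and 103 CPM) and Pi16 at 17.3 and 37.7 CPM. Of them, 80.8% and 79.4% had at least 2 UMIs over the 4 defining genes. A UMI of the mesothelial genes was present in 31 of 462 and 14 of 197 taPVAT members and in 0 of 117 and 1 of 78 BAT members. Their summed level was 25.2 and 41.0 CPM in taPVAT members, 0 and 2.77 CPM in BAT members, 5.78 and 3.55 CPM, and 0.933 and 1.57 CPM, in the other fibroblasts, and, by their definition, 792 and 1346 CPM in mesothelial nuclei of taPVAT. Krt19 had 0 UMIs in all gated fibroblasts.

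Without the 46 marked members and 38 marked other fibroblasts, 8 genes were called, all among the 23: Col8a1, Plod2, Piezo2, Dkk2, Dlg2, Wt1, Ppp2r2b and Tbx15. The percentage called was 0.107% higher and 0.0152% lower in taPVAT. Col8a1 was then at 169 and 234 CPM in taPVAT, and mesothelial nuclei held 3.46 and 0 CPM of it. Piezo2 was at 62.1 and 101 CPM and had 0 UMIs in mesothelial nuclei. Mesothelial levels of Wt1 (342 and 1139 CPM), Plod2 (214 and 508 CPM) and Ppp2r2b (661 and 725 CPM) were above those of members.

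The other 15 genes were not called without the marked nuclei. Gpm6a, a neuronal membrane glycoprotein gene, was at 848 and 1162 CPM in taPVAT and 85.5 and 83.1 CPM in BAT in all members and at 547 and 190.1 CPM in taPVAT members without a mesothelial UMI, while mesothelial nuclei held 7047 and 11625 CPM. Cdh11, a cadherin of mesenchyme, was at 217 and 459 CPM in taPVAT and 39.5 and 22.1 CPM in BAT, then at 134 and 70.1 CPM in taPVAT, with 1200.4 and 3012 CPM in mesothelial nuclei. The guidance genes Plxna4 and Sema5a were no longer called either, at log2 fold changes of 2.10 against 3.09 (adjusted p = 0.40, edgeR) and 2.04 against 2.74 (adjusted p = 0.19). With Pi16 or Dpp4 required as well, Plxna4 was at 2.54 and Sema5a at 1.34. Pkhd1l1 went from 157 and 281 CPM to 87.9 and 1.85 CPM in taPVAT, Gcnt2 from 82.3 and 87.0 CPM to 52.9 and 0 CPM, Il16 from 55.2 and 60.7 CPM to 35.0 and 9.23 CPM and Fras1 from 51.6 and 37.7 CPM to 33.7 and 5.54 CPM. These 4 and 2 unnamed loci then had too few counts to be tested. For Trpm3, Me3 and Gpc3 the log2 fold change was as large without the marked nuclei, 3.56, 2.60 and 2.86 against 3.43, 2.59 and 2.84, and the adjusted p was 0.0505 for each. With Pi16 or Dpp4 required as well, Trpm3 was at 1.67 (adjusted p = 0.999), Me3 at 2.20 (adjusted p = 0.14) and Gpc3 at 3.06 (adjusted p = 0.068). Trpm3 was called under 8 of 17 alternatives. Spock3 missed the threshold at an adjusted p of 0.058, with a fitted log2 fold change of -5.70 against -5.81 in all members, and had 0 UMIs in mesothelial nuclei.

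**Figure D4:**
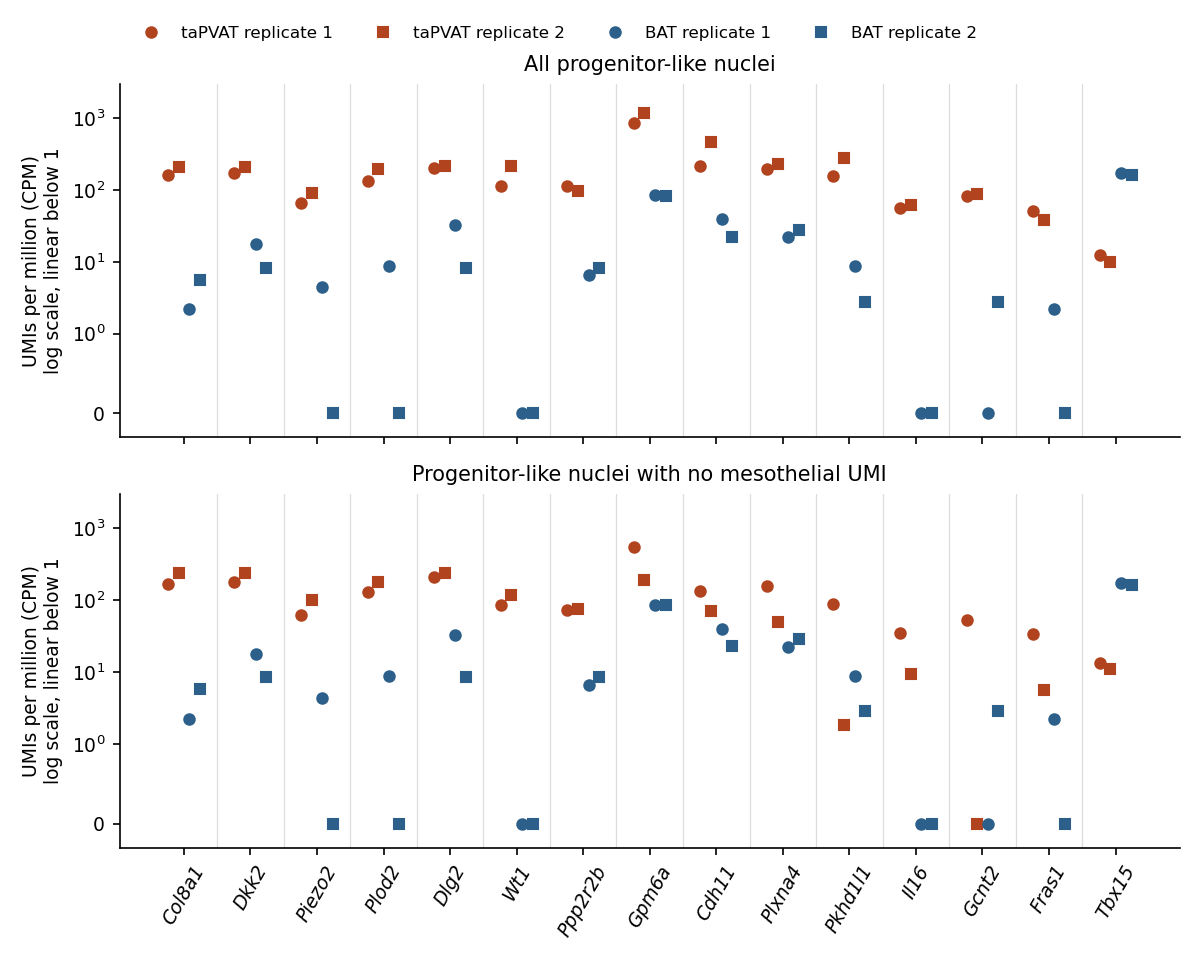
Level of 15 genes in the members of each library (y axis, CPM, log scale that is linear below 1), for all members (top) and for members without a mesothelial UMI (bottom). Col8a1, Dkk2, Piezo2, Plod2, Dlg2, Wt1 and Ppp2r2b stay separated between tissues below, while Pkhd1l1 and Gcnt2 of taPVAT replicate 2 drop to 1.85 and 0 CPM. Gpm6a, Cdh11, Il16 and Fras1 also stay higher in both taPVAT libraries below, at reduced levels and without a call.

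Marked members were few enough that the share of progenitor-like nuclei changed little without them, to 26.5% and 26.0% in taPVAT and 7.99% and 8.73% in BAT. A mesothelial nucleus with no UMI of the mesothelial genes would remain among the unmarked members. The share without marked nuclei therefore does not measure how many mesothelial nuclei the members hold. When members also needed Pi16 or Dpp4, 5 genes were called between tissues (0.0737% higher and 0.0184% lower in taPVAT), 4 of them among the 23 (Col8a1, Plod2, Dlg2 and Tbx15). Wt1, Piezo2 and Dkk2 narrowly missed the threshold there (adjusted p = 0.0544 for each), while Ppp2r2b had a log2 fold change of 2.35 (adjusted p = 0.35). Whether RNA of mesothelial cells enters the levels of the marked members, or mesothelial cells entered the gate, was not tested.

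The other fibroblasts, tested in the same way between tissues, gave 0 calls among 10941 genes (0%) in edgeR, with 333 at an unadjusted p under 0.05 and 34 calls in DESeq2. With 1 library left out, edgeR called 36 genes (BAT replicate 1 omitted), 22 (BAT replicate 2), 0 (taPVAT replicate 1) and 18 (taPVAT replicate 2). That the members gave 23 calls does not show that the tissues differ more in members. The interaction of subset and tissue tests gene by gene whether the log2 difference between tissues is the same in members and other fibroblasts. An excess in members is here relative to the other fibroblasts, so it can come from either subset. Of 10372 genes, 435 had an unadjusted p under 0.05. The test called 7 (0.0675%), 6 (0.0578%) with a larger taPVAT excess in members and 1 (0.00964%) with a larger BAT excess. This count, too, rests on the libraries. Omitting BAT replicate 1 gave 44 calls, 6 of them with a larger BAT excess, and omitting BAT replicate 2 gave 23, with 12 such genes. Omitting taPVAT replicate 1 gave 49 calls and replicate 2 gave 21, with 11 and 4 such genes. DESeq2 called 1 gene. Of the 23 genes above, Gcnt2 and Gpm6a were among the 7.

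Igfbp5, a binding protein of insulin-like growth factors, had the smallest p of the interaction. Members held 405 and 702 CPM in taPVAT and 572 and 194 CPM in BAT, and other fibroblasts 73.7 and 59.1 CPM in taPVAT and 683 and 143 CPM in BAT. In taPVAT members lay above the other fibroblasts in both libraries, whereas in BAT the ranges overlapped. The log2 difference between taPVAT and BAT was higher by 2.95 ± 0.30 in members (adjusted p = 3.5e-05, edgeR). It was called under each of 18 alternative settings, at 2.49 to 3.54, and it was the only gene called without the nuclei marked as mesothelial. Taken alone, neither subset passed the threshold between tissues: in members the fit gave log2 fold change 0.52 ± 0.51, adjusted p = 1.0, and in the other fibroblasts, lower in taPVAT in both libraries, log2 fold change -2.61 ± 0.67, adjusted p = 0.91.

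**Figure D5:**
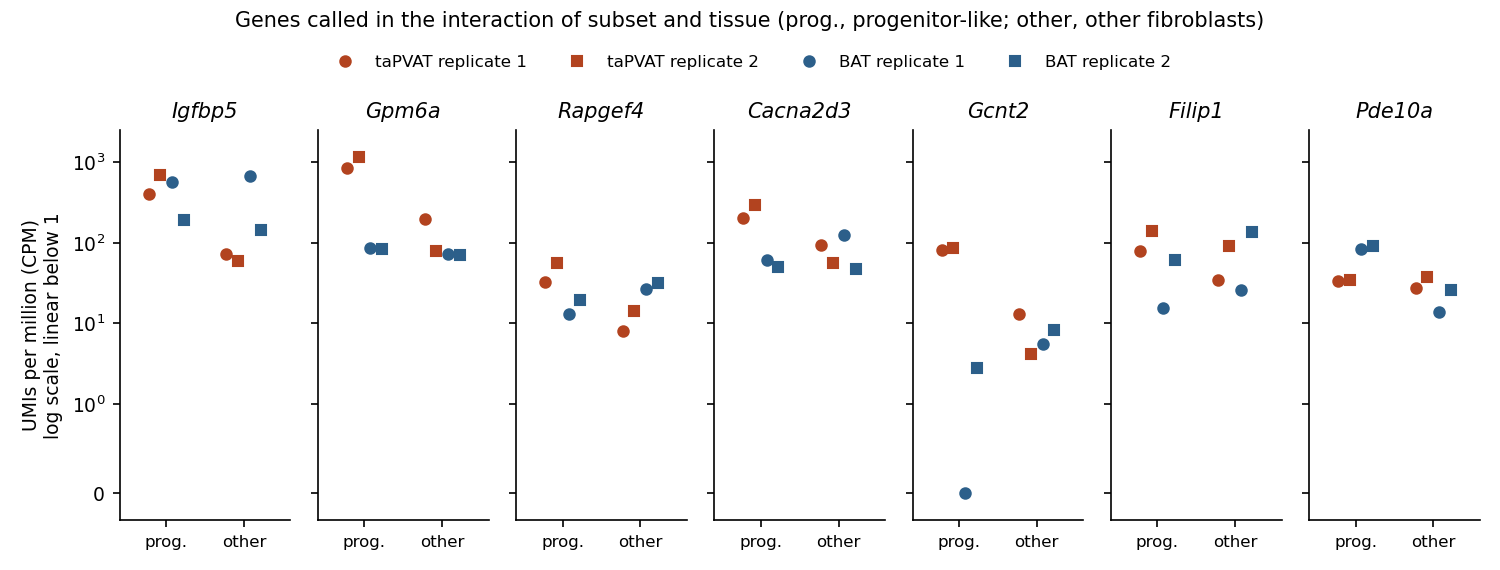
Level of the 7 genes called in the interaction of subset and tissue (y axis, CPM, log scale that is linear below 1) in members (prog.) and other fibroblasts (other) of each library. Igfbp5 of taPVAT is at 405 and 702 CPM in members and at 73.7 and 59.1 CPM in other fibroblasts.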

How the data were processed

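Single-nucleus RNA libraries (10x 3' chemistry) of 2 taPVAT and 2 BAT samples were analysed. The authors deposited UMI counts per gene and barcode, made with Cell Ranger 7.1.0 on Rnor_6.0 per the submitters' processing notes; the sources used here do not give intron settings or the annotation. Barcodes with at least 500 genes were kept (12336 to 42979 per library, 116661 in all), with no further filter. Whether replicates came from separate animals follows the series' design text. For the tissues within a subset, p-values measure the spread between these libraries. For members against other fibroblasts and for the interaction, they measure how the difference between subsets varies between these libraries.

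The members and the gene lists were chosen with earlier results of these data known. Counts were summed per library and subset. edgeR 4.0.16 (R 4.3.3; TMM, filterByExpr, quasi-likelihood test, Benjamini-Hochberg over all genes tested) compared members with other fibroblasts (library as a term), the tissues within each subset, and the interaction. Genes outside the lists were named by size of fold change among calls: at most 12 each way between tissues, 15 each way between subsets (mean of at least 20 CPM, one sign in 4 libraries) and 5 each way in the interaction, passing over clone names. Folds against 0 UMIs use a floor of 3 UMIs over the group. Intervals are Wilson 95%, or exact for ratios of counts. Both cover counting error only: they leave out the spread between libraries and, for ratios, between nuclei. Adipocyte and endothelial reference nuclei had at least 3 UMIs over at least 2 of their own marker genes and at most 1 fibroblast UMI. The scripts were tested on simulated data.

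Alternatives were DESeq2 1.42.0, other normalization, filters and thresholds, thinning, matching on UMIs, a replicate block and leaving out each library. Doublets were kept in the main analysis. Scrublet (scanpy 1.11.5) called 10.8%, 6.61% and 15.3% of barcodes in 3 libraries and 0 in BAT replicate 1, where the 6402 highest scores were removed instead in that alternative. One gene among the calls is not reported here.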

Additional observations from a re-analysis of the deposited data

Results flagged for a closer look

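The difference between taPVAT and BAT was itself different in progenitor-like and other fibroblasts for 7 genes, by edgeR's test of the interaction. Positive values mean that the log2 difference, taPVAT over BAT, was higher in members than in other fibroblasts. Such a value can come from either subset.

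Igfbp5 is described above (2.95). Gpm6a had 2.69 ± 0.41 (adjusted p = 0.0098), with members at 848 and 1162 CPM in taPVAT and 85.5 and 83.1 CPM in BAT and other fibroblasts at 199 and 78.6 CPM in taPVAT and 73.5 and 71.3 CPM in BAT. Rapgef4, an exchange factor activated by cyclic AMP, had 2.88 ± 0.47 (adjusted p = 0.015): members were at 32.5 and 55.8 CPM in taPVAT and 13.2 and 19.4 CPM in BAT, and other fibroblasts at 7.95 and 14.2 CPM in taPVAT and 26.5 and 31.7 CPM in BAT, so the subsets stood in opposite order in the tissues.

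Cacna2d3, a calcium channel subunit, had 2.29 ± 0.38 (adjusted p = 0.017), Gcnt2 5.59 ± 0.97 (adjusted p = 0.022) and Filip1, outside the rule for named genes, 1.98 ± 0.35 (adjusted p = 0.028). Gcnt2 rests on 1 UMI in BAT members, so its fitted value is no measure of size. Without the nuclei marked as mesothelial these 3, with Gpm6a and Rapgef4, were not called, Cacna2d3 at 1.72 with an adjusted p of 0.063. With Pi16 or Dpp4 required as well, Cacna2d3 was called (2.79, adjusted p = 1.4e-06), and it was called under 15 of 18 alternatives. In the fit with members restricted to nuclei with Pi16 or Dpp4 and no mesothelial UMI, Filip1 was at 0.80 (adjusted p = 1.0), Gpm6a at 0.97 (adjusted p = 0.57) and Rapgef4 at 0.95 (adjusted p = 1.0), and Gcnt2 had an adjusted p of 0.83. In taPVAT, mesothelial nuclei held 612 and 1374 CPM of Cacna2d3, 359.8 and 715 CPM of Filip1 and 218 and 489 CPM of Rapgef4.

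Pde10a, a phosphodiesterase of cyclic nucleotides, was the exception in direction (-2.06 ± 0.37, adjusted p = 0.028). Members were at 33.8 and 34.5 CPM in taPVAT and 83.3 and 91.4 CPM in BAT and other fibroblasts at 27.7 and 37.2 CPM in taPVAT and 13.8 and 25.8 CPM in BAT. It was called under 11 of 18 alternatives, with adjusted p between 9.2e-05 and 0.61, and without the marked nuclei it kept a similar size (-1.97) and missed the threshold (adjusted p = 0.063). With Pi16 or Dpp4 required as well it was called (-2.40, adjusted p = 0.00024). The part of mesothelial RNA in these values was not tested.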

How the results depend on the processing

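The share of progenitor-like nuclei was higher in taPVAT under every alternative run. The exact permutation test gave p = 0.333 wherever it was run, the smallest value that 2 against 2 libraries allow. It was not run with a library left out or within replicate numbers. The difference of 19.0 points was 17.4 with at least 1000 genes per nucleus, 15.1 with at least 3 UMIs and 13.4 with at least 2 of the 4 genes. It was 12.5 thinned to 1000 UMIs, 21.1 at or below the median adipocyte share, 15.9 with Pi16 or Dpp4 required, 17.9 without mesothelial UMIs and 15.5 with both, and 18.5 to 19.4 with a library left out.

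Between members and other fibroblasts, 734 calls became 480 in DESeq2, 148 in a fit without the library term, and 484 to 740 in all without a library. For taPVAT against BAT in members, 23 calls became 43 in DESeq2, 14 with at least 1000 genes, 110 without a filter on low counts, 8 without mesothelial UMIs, 15 with Pi16 or Dpp4 required and 5 with both, and 0 to 79 without a library. The 0 calls of the other fibroblasts became 34 in DESeq2, 4 at or below the median adipocyte share, 110 without a filter and 0 to 36 without a library. The 7 interaction calls became 1 in DESeq2, 4 with at least 1000 genes, 1 without mesothelial UMIs, 17 without Scrublet doublets and 28 without barcodes shared by libraries. They became 36 without a filter, 20 with Pi16 or Dpp4 required, 14 with both, 3 with at least 2 of the 4 genes, 22 against nuclei with 0 UMIs and 21 to 49 without a library. The cause of these changes was not tested. Of the named genes' values under alternatives, 0 reversed, and 263 of 2469, 100 of 375 and 34 of 126 lost their call in the 3 comparisons.

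With the replicate number as a block, 108 genes were called between tissues in members and 17 in the other fibroblasts, and the share differed by 19.5 and 18.4 points within numbers 1 and 2. Deviations of same-numbered libraries correlated at 0.272 in members and 0.521 in other fibroblasts, but 2 pairs do not establish pairing, so the numbers serve only as names.

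Libraries, 2 per tissue, limit every comparison, and BAT members total 817189 UMIs against 2238456 in taPVAT, so a gene absent in BAT is only below detection. Requiring Pi16 or Dpp4, removing mesothelial UMIs or shared barcodes was chosen after seeing the data.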
